A study of Homo sapiens with 18 samples.

Results

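Vehicle-treated HK-2 cultures were compared between 24 and 12 h of exposure, with 3 arrays at 24 h and 3 at 12 h out of 18 arrays in the series. The 6 arrays were chosen by their titles, as the control samples of those times, and were paired by biological replicate number. HK-2 is an immortalized line of human proximal tubular epithelium. All cultures were kept in a defined medium with EGF, hydrocortisone, insulin, transferrin and selenite, plated in 6-well plates 24 h before exposure and exposed close to confluence. Vehicle cultures received the carrier of the compound CsA, commonly short for cyclosporin A, and neither the carrier nor a dose is named in the labels. Cultures given CsA for 24 and 12 h, and vehicle cultures of 48 h, each with 3 arrays, serve below as comparison. Since HK-2 is a single line from one laboratory, the replicates measure the spread between cultures of that line. The labels call them biological replicates and do not say whether they came from separate passages or days.

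When an epithelial sheet closes, cell contacts are known to restrain growth signalling through the EGF receptor and the YAP coactivator, and the genes that these pathways drive, proteases and AP-1 subunits among them, are typical of migrating or freshly plated cells. Cultured cells also keep a circadian clock, a transcriptional loop that a change of medium can set. TXNIP, an arrestin-like protein whose transcription follows glucose entry, and the sterol and amino acid responses are known to follow the composition of the medium.

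Each value is a GCRMA expression value on the log2 scale, so a difference of 1 is a 2-fold difference in signal, and values under about 4 lie near the array background. Each gene is represented by its brightest probe set. Of the genes on the array, 10717 reached 4 in the mean of at least 1 of the 6 groups of the series, and 10507 of them did so in a vehicle group of 24 or 12 h. Differences are 24 h minus 12 h, given with the standard error of a limma fit in which the 12 arrays of CsA and vehicle at both times share one estimate of the spread and replicate number is a block. RNA came from whole wells, so fewer cells of a kind and less RNA per cell cannot be told apart.

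The 6 arrays were alike in overall level. Array medians were 2.87 to 2.89 at 24 h and 2.86 to 2.88 at 12 h. Between 38.4% and 38.5% of probe sets reached 4 at 24 h, against 38.4% to 38.8% at 12 h. Replicate 3 stood apart at both times. The SD over genes between it and replicates 1 and 2 was 0.752 and 0.795 at 24 h and 0.750 and 0.775 at 12 h, while replicates 1 and 2 differed by 0.256 at 24 h and by 0.225 at 12 h. The difference between the 3-prime and 5-prime probe sets of ACTB, a sign of RNA integrity, was 0.675, 0.929 and 0.785 at 24 h and 0.813, 1.03 and 0.860 at 12 h. It was lower at 24 h in 3 of 3 pairs, by 0.104 on average (two-sided exact permutation test over the pairs, p = 0.25, the smallest that 3 pairs can give). It thus moved with every vehicle difference of 24 h minus 12 h below that had one sign in the 3 pairs. Its part in the differences given below was not tested. For GAPDH the same measure was higher at 24 h by 0.013 on average, with a two-sided exact permutation p of 0.75.

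The tubular label was checked against marker genes. Of 12 proximal tubule markers on the array, 2 reached 4, DPP4, a brush border peptidase (11.64, 11.47 and 11.33 at 24 h and 11.61, 11.49 and 11.56 at 12 h), and PAX8, a renal transcription factor (10.50, 10.28 and 11.15 at 24 h and 10.27, 10.11 and 11.06 at 12 h). LRP2, CUBN, AQP1, ANPEP and SLC34A1, which define the mature proximal tubule, lay near background. Of 11 distal nephron markers, 3 reached 4. CLDN16, a tight junction protein of the thick ascending limb, was at 10.36, 10.64 and 9.46 at 24 h and 10.37, 10.70 and 9.48 at 12 h, and SCNN1A, a subunit of the epithelial sodium channel, was at 9.28, 9.01 and 6.34 at 24 h and 9.47, 9.51 and 5.23 at 12 h. AQP3, a water channel of the collecting duct, was at 5.50, 5.98 and 2.92 at 24 h and 5.38, 5.95 and 2.82 at 12 h, near background in replicate 3. SLC12A1, SLC12A3 and AQP2, which define distal segments, lay near background. The epithelial markers EPCAM, KRT8, KRT18 and KRT19 were high on all 6 arrays, and CDH1 was near background in replicate 3 alone, at 3.05 at 24 h and 3.06 at 12 h. Of 11 fibroblast markers, 5 reached 4. DCN was at 10.35 to 10.72 at 24 h and 10.25 to 10.61 at 12 h. LUM was at 9.40 to 9.66 at 24 h and 9.67 to 9.82 at 12 h. COL1A1 was at 7.45 to 8.15 at 24 h and 7.69 to 8.39 at 12 h. ACTA2 was at 5.92 to 6.25 at 24 h and 5.98 to 6.00 at 12 h. COL3A1 was at 4.11 to 5.45 at 24 h and 4.18 to 4.75 at 12 h. PDGFRA, PDGFRB and THY1 lay near background, and COL1A2, TAGLN and POSTN had means under 4 at both times. Summed over the fibroblast list on the linear scale, the arrays held 2566 to 2791 units at 24 h and 2498 to 2873 at 12 h. The 8 endothelial markers lay near background. Of 7 leukocyte markers LCP1, an actin-bundling protein, reached 4 in replicate 3, at 4.84 at 24 h and 5.56 at 12 h, and the others, PTPRC among them, lay near background. Of 5 podocyte markers SYNPO (4.51 to 5.48 at 24 h and 5.01 to 5.16 at 12 h) and PODXL (4.55 to 4.56 at 24 h and 4.56 to 4.63 at 12 h) reached 4, while NPHS1 and WT1 lay near background.

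Between 12 and 24 h the vehicle cultures differed little. The median difference over the 10717 genes was -0.0069, the median size of a difference was 0.101, and 95% of genes differed by less than 0.372. At a limma adjusted p under 0.05, 2 genes fell (0.0187% of those tested) and 0 rose (0.0%). At an unadjusted p under 0.05 there were 1400 genes (13.1%), 618 of them higher (5.77%) and 782 lower (7.3%). That count depended on the fit, at 131 to 1686 over the alternatives that tested the same 10717 genes. Counts at an unadjusted p given below for this interval come from the main fit. A difference of 1 or more was measured for 11 genes, 9 lower and 2 higher at 24 h, and all 11 had one sign in the 3 pairs. Sorted by a wider rule, chosen after the values were seen, 60 genes were higher in all 3 pairs with a mean difference of at least 0.5 (0.56% of those tested) and 122 were lower (1.14%). These 182 genes are called shifted below. The nearest genes on either side of that limit differed by 0.504 and 0.497 among the higher ones and by -0.5002 and -0.4992 among the lower ones.

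**Figure D1:**
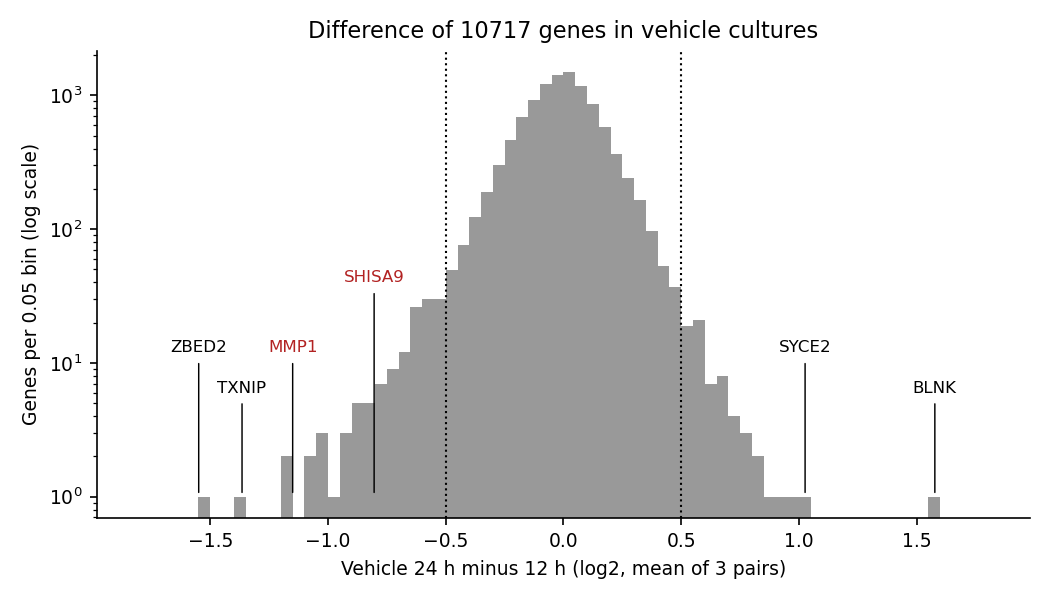
Number of genes (log axis) by their difference between vehicle cultures of 24 h and 12 h (log2, mean of 3 pairs, bins of 0.05). Dotted lines mark differences of 0.5 either way, and MMP1 and SHISA9 (red), the genes that passed the test, lie at -1.15 and -0.80 while most genes lie close to 0.

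The genes that fell were MMP1 and SHISA9. MMP1, the interstitial collagenase that cuts fibrillar collagen, had log2 values of 6.20, 5.20 and 12.68 in replicates 1 to 3 at 24 h, against 7.28, 6.63 and 13.63 at 12 h. Replicate 3 held a far higher level than the others at both times, and within every pair the 24 h array was the lower one. MMP1 fell by 1.15 ± 0.12 on the log2 scale (limma adjusted p = 0.0333), which is 2.22-fold lower at 24 h. SHISA9, a membrane protein known from the brain as an auxiliary subunit of AMPA-type glutamate receptors, had 6.67, 6.60 and 8.34 at 24 h and 7.44, 7.38 and 9.20 at 12 h. Its fall was 0.80 ± 0.086 (limma adjusted p = 0.0333), again in 3 of 3 pairs. The other probe set of SHISA9 at a measurable level went the other way, by 0.21, and the mean of both gave -0.30 (limma adjusted p = 0.395). Both calls were lost on the 6 vehicle arrays alone (limma adjusted p = 0.253 for each) and without replicate 1, 2 or 3 (0.120 to 0.587 over both genes).

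Genes that remodel the matrix around MMP1 differed by less. The genes described from here on were taken by smallest p in each direction, from a preset set chosen with earlier results of these data known, or after their values were seen, and none but MMP1 and SHISA9 passed the test over all genes. The medians of gene lists are descriptions: of 40 lists, 17 changed the sign of their median without one replicate, and a further 20 moved by over 1.5 times. Among 10 tested matrix proteases and their inhibitors, 6 had a negative difference, near the 52.1% of all genes that did, and 4 were lower at an unadjusted p under 0.05, against 7.3% of all genes. After MMP1 the lowest was PLAT, the tissue plasminogen activator, at 6.38, 6.28 and 10.22 at 24 h and 6.78, 7.31 and 10.34 at 12 h, a difference of -0.52 ± 0.18. PLAUR, the receptor of urokinase, was lower in 3 of 3 pairs by a smaller amount, -0.28 ± 0.078. PLAU, urokinase itself, differed by 0.13 ± 0.12, and TIMP1, an inhibitor of matrix metalloproteases, by 0.054 ± 0.071. THBS1, thrombospondin, an adhesive glycoprotein released into the matrix, was at 6.73, 6.21 and 7.89 at 24 h and 7.41, 7.42 and 8.66 at 12 h. Every 24 h array of THBS1 lay below its 12 h partner, and the difference was -0.88 ± 0.18 (limma adjusted p = 0.144). Of 18 collagens, laminins and other matrix proteins that list holds, 10 were negative, with a median of -0.02. COL12A1 differed by -0.50 ± 0.17, while the basement membrane chains LAMB1 and COL4A1 had positive differences of 0.29 ± 0.11 and 0.22 ± 0.074.

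The transcription factors FOSL1 and RUNX2 were among the 9 genes lower by 1 or more. FOSL1, an AP-1 subunit induced by growth factors, had 2.96, 3.36 and 6.13 at 24 h and 4.64, 4.46 and 6.54 at 12 h. Replicates 1 and 2 were near background at 24 h, so the size of the difference, -1.07 ± 0.26, is compressed there (limma adjusted p = 0.176). RUNX2, a transcription factor best known from bone, had 5.59, 4.85 and 6.51 at 24 h and 6.49, 6.34 and 7.31 at 12 h, a difference of -1.06 ± 0.27, lower in 3 of 3 pairs. JUN, the usual partner of FOSL1 in AP-1, was lower by less (-0.34 ± 0.095, with 1 probe set of opposite sign), and EGR1, a preset immediate early gene, differed by -0.049 ± 0.097 without one sign in the pairs. HBEGF, a membrane-anchored ligand of the EGF receptor, had 5.37, 5.71 and 7.50 at 24 h and 6.20, 6.20 and 8.30 at 12 h, a difference of -0.71 ± 0.20. EREG, another such ligand, differed by -0.48 ± 0.46, and PHLDA1, a gene induced by EGF signalling, by -0.33 ± 0.14. In the opposite direction were the inhibitors LRIG1, which removes EGF receptor from the surface (0.33 ± 0.13), and SPRY1, which restrains the MAP kinase cascade (0.57 ± 0.21). SPRY1 lay at 4.18 at 24 h and 4.21 at 12 h in replicate 3, so its difference came from replicates 1 and 2. Of the 18 tested EGF receptor ligands and feedback genes, 12 were negative (52.1% of all genes), with a median of -0.05. At an unadjusted p under 0.05, 2 were higher and 2 lower (5.77% and 7.3% of all genes). In all 3 pairs 4 were higher and 4 lower (18% and 19.5% of all genes). The list thus showed no common direction, and its median reached 0.013 without one replicate.

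**Figure D2:**
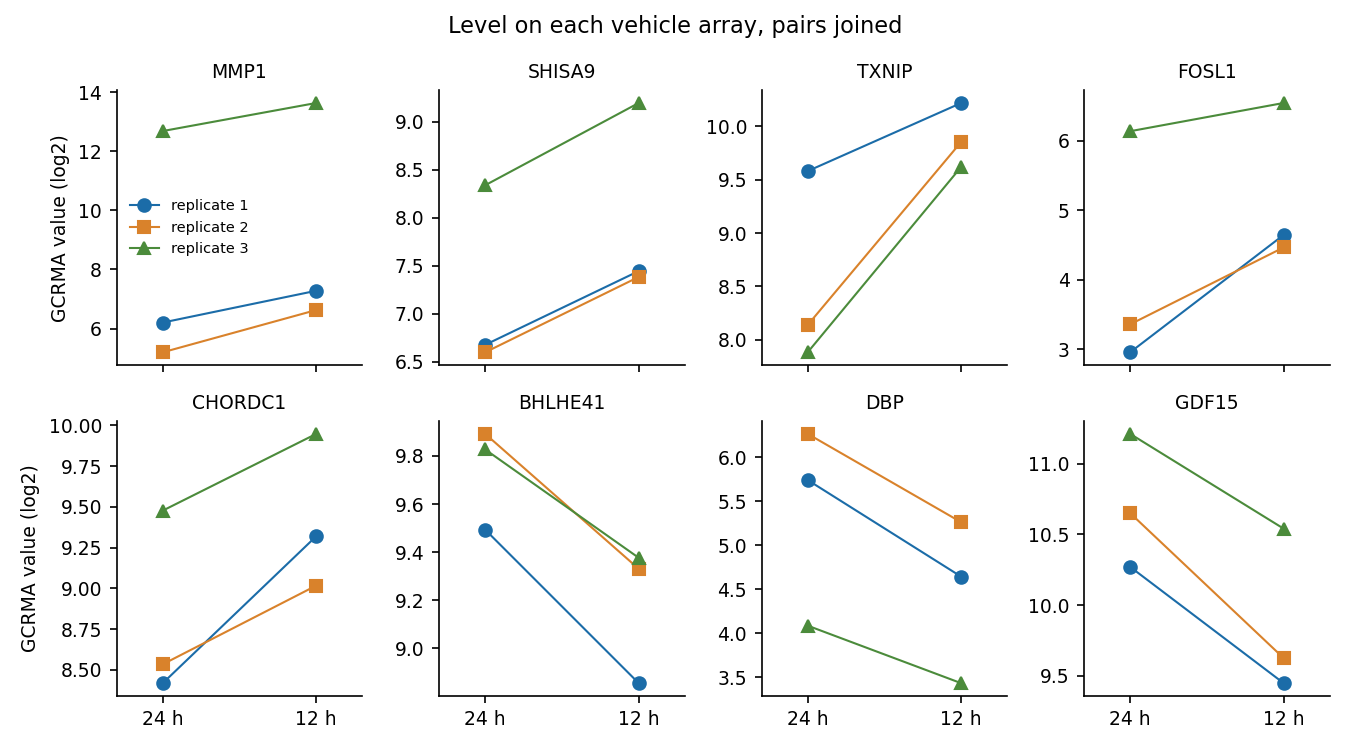
GCRMA value (log2) of 8 genes on each vehicle array, 24 h left of 12 h, with a line joining the arrays of one replicate number. Within each of these genes the 3 lines slope the same way, with every 24 h point below its 12 h partner in MMP1, SHISA9, TXNIP, FOSL1 and CHORDC1 and above it in BHLHE41, DBP and GDF15; the vertical axes differ between panels.

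YAP and TEAD targets had small differences, and 0 of them passed the test (limma). Of 14 tested genes, 11 were negative (52.1% of all genes), with a median of -0.12 that was -0.072 without replicate 2. At an unadjusted p under 0.05, 1 of the 14 was lower, near the 7.3% of all genes that were. In 7 of the 14 all 3 pairs were lower, where 19.5% of all genes were. CCN1, a matricellular protein and classical YAP target, was at 10.45, 10.76 and 11.59 at 24 h and 10.90, 10.85 and 11.75 at 12 h, and F3, the tissue factor that starts coagulation, differed by -0.32 ± 0.10. Of 16 TGF-beta targets and ligands, 9 were negative. TGFB2, a TGF-beta ligand, was at 6.93, 6.77 and 4.85 at 24 h and 7.75, 7.27 and 5.81 at 12 h, lower in every pair, with a difference of -0.76 ± 0.15 (limma adjusted p = 0.140). CCND1, cyclin D1, which growth factors induce to carry cells into the cycle, was a preset gene. It was at 6.04, 5.87 and 7.92 at 24 h and 6.51, 6.86 and 8.25 at 12 h, a difference of -0.60 ± 0.21. SOX9, a transcription factor reexpressed in regenerating tubules, had 5.92, 4.59 and 8.20 at 24 h and 6.39, 6.28 and 8.62 at 12 h, lower in 3 of 3 pairs, with a difference of -0.86 ± 0.26.

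The genes with the smallest p after MMP1 and SHISA9 were of mixed function. EMP1, an epithelial membrane protein of the claudin-related PMP22 family, had 9.56, 9.69 and 7.46 at 24 h and 10.07, 10.21 and 8.36 at 12 h and differed by -0.65 ± 0.089 (limma adjusted p = 0.0566). SPHK1, which makes the signalling lipid sphingosine 1-phosphate, had 5.60, 5.67 and 5.43 at 24 h and 6.50, 6.49 and 6.21 at 12 h. Its 24 h arrays all lay below its 12 h arrays, and the difference was -0.83 ± 0.12 (limma adjusted p = 0.0728). KITLG, the ligand of the receptor KIT, differed by -0.55 ± 0.072, PLPP4, a phospholipid phosphatase, by -0.61 ± 0.074, and POP1, a protein subunit of the RNA-cleaving complexes RNase P and RNase MRP, by -0.74 ± 0.097 (limma adjusted p = 0.0566 for each). GLIPR1 differed by -0.66 ± 0.093, CHAC2, a glutathione-degrading enzyme, by -0.60 ± 0.090, NEFH, a neurofilament chain, by -0.50 ± 0.075, THEM4, a thioesterase, by -0.62 ± 0.10, and MARS2, the mitochondrial methionyl-tRNA synthetase, by -0.73 ± 0.12. In each of them 3 of 3 pairs were lower. Arrays did not overlap, with the 24 h ones lower, in 331 genes (3.09%), and POP1 and SPHK1 were among them. The lowest difference of all tested genes was that of ZBED2, a zinc finger protein, at 4.88, 4.42 and 4.10 at 24 h and 6.10, 6.53 and 5.41 at 12 h. It was -1.55 ± 0.37 (limma adjusted p = 0.175). SLN, a small regulator of the calcium pump SERCA, had 5.77, 3.72 and 8.16 at 24 h and 6.51, 5.78 and 8.87 at 12 h, a difference of -1.17 ± 0.27 with 1 array at background.

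**Figure D3:**
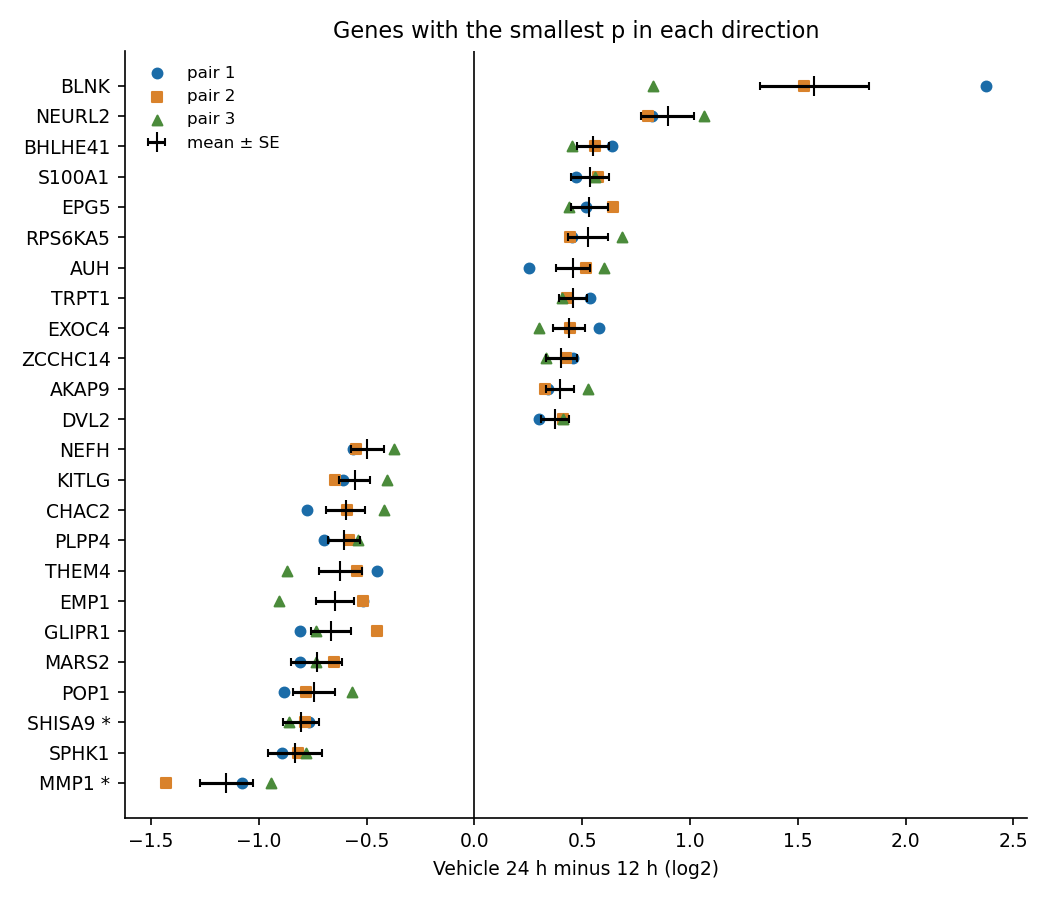
Difference between vehicle cultures of 24 h and 12 h (log2) for the 12 genes with the smallest p in each direction among those with one sign in the pairs, with a point for each replicate pair and a cross with bars for the mean ± SE. Asterisks mark MMP1 and SHISA9, which passed the test at an adjusted p under 0.05; the 3 pairs of each gene lie on one side of 0 because the genes were chosen so.

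The EMP1 promoter window is shown for the recognition letters of AP-1, whose subunit FOSL1 was among the lower genes, and was picked because it holds them at more than one place. Windows run from 250 bases before to 50 after a RefSeq transcript start (GRCh38.p14), and 8883 of the tested genes had at least 1 window. The EMP1 window lies at chr12:13196476-13196775 on the plus strand, and capitals mark TGANTCA, where N is any base, which reads the same on both strands.
EMP1: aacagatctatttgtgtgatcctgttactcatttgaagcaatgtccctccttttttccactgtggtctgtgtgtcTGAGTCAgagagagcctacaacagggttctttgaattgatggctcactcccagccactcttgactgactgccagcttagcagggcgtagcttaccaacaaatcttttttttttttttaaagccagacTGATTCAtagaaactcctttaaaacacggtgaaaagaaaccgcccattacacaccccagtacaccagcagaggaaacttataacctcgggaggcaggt
The motif occurs 2 times in this window, 1 time in that of PLAUR and 0 times in that of HBEGF. It was found in 8 of 135 windows of the shifted lower genes (5.93%), in 5.08% of the windows of all tested genes and in 7.71% of all 35116 windows. A match is a string of letters and not an observed binding site.

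Heat shock proteins and their cochaperones, many of which the factor HSF1 induces when proteins misfold, had small differences, and 0 of them passed the test (limma). Negative differences were found in 14 of the 16 tested genes, and the list's median was -0.15, where 52.1% of all genes were negative. In 7 members the unadjusted p was under 0.05, all of them lower (7.3% of all genes), and in 11 all 3 pairs were lower (19.5% of all genes). CHORDC1, a cochaperone of HSP90, had 8.42, 8.53 and 9.48 at 24 h and 9.32, 9.02 and 9.95 at 12 h, a difference of -0.62 ± 0.10 (limma adjusted p = 0.0979). HSP90AA1, the stress-inducible HSP90 chaperone, was among the brightest genes, at 14.41, 14.40 and 14.89 at 24 h and 14.87, 14.89 and 15 at 12 h. Its difference was -0.35 ± 0.11, and that of HSP90AB1, the constitutive form, was -0.27 ± 0.085. HSPH1, a nucleotide exchange factor of HSP70, differed by -0.30 ± 0.083, BAG3, another HSP70 cochaperone, by -0.27 ± 0.089, DNAJA1, an HSP40 protein, by -0.22 ± 0.076, and HSPE1, the mitochondrial chaperonin's cap, by -0.27 ± 0.11. HSF1 itself differed by 0.17 ± 0.095 and HSPB1, a small heat shock protein, by -0.061 ± 0.081, neither with one sign in the pairs.

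The promoter windows of CHORDC1 and HSP90AA1 are shown with facing pairs of the repeats that form heat shock elements, GAANNTTC or TTCNNGAA, in capitals. Both patterns read the same on either strand, and neighbouring matches can overlap. The CHORDC1 window lies at chr11:90223000-90223299 and the HSP90AA1 window at chr14:102086995-102087294, both on the minus strand.
CHORDC1: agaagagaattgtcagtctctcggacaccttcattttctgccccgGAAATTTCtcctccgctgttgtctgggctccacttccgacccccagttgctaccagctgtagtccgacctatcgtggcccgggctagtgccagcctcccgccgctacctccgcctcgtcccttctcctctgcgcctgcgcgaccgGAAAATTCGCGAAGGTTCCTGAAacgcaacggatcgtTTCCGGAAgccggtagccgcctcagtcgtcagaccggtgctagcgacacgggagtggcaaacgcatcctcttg
HSP90AA1: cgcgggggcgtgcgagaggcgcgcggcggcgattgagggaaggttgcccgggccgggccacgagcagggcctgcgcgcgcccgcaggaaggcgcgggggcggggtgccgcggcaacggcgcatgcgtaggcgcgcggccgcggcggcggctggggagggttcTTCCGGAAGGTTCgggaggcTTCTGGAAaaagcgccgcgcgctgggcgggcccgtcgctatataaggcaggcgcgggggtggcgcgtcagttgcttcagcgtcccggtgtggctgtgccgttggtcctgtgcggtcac
CHORDC1 holds 6 matches, 4 of which overlap in one run, and HSP90AA1 holds 3, a pair of which overlap. HSP90AA1 has another window, which holds 0, and the window of HSPH1 holds 0. Of 25 windows of the heat shock list, belonging to 15 of its 16 tested genes, 12 held either pattern (48.0%), against 10.21% of the windows of all tested genes and 13.49% of all windows. Many genes of the list are known targets of HSF1, so that share does not bear on the difference between times. Among the shifted genes, 19 of 135 windows of the lower ones (14.07%) and 1 of 59 of the higher ones (1.69%) held either pattern. A match is not an observed binding site.

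Genes that build ribosomes had small differences, of which 0 passed the test (limma). Negative ones were found in 25 of 26 tested ribosome biogenesis genes, against 52.1% of all genes, and their median was -0.16, or -0.095 without replicate 3. Of the 26, 6 were lower at an unadjusted p under 0.05 (7.3% of all genes), and 13 were lower in all 3 pairs (19.5% of all genes). RRS1, an assembly factor of the large subunit, had 8.99, 8.72 and 9.70 at 24 h and 9.30, 9.55 and 10.21 at 12 h, a difference of -0.55 ± 0.16. NOP58, a core protein of box C/D snoRNPs, was at 11.21, 11.32 and 11.63 at 24 h and 11.62, 11.54 and 11.85 at 12 h, a difference of -0.28 ± 0.074. RRP9, which binds the U3 snoRNA, differed by -0.47 ± 0.16 with pair 2 at 0.016 and so without one sign, and NOP14 differed by -0.28 ± 0.10. UTP4 alone of the 26 was positive, at 0.037. MYC, the transcription factor that drives many of these genes, differed by 0.17 ± 0.093, higher in 3 of 3 pairs. Of 22 proteasome subunits 20 were negative (52.1% of all genes), 14 of them in all 3 pairs (19.5% of all genes), and 0 reached an unadjusted p under 0.05 or passed the limma test. Their median was -0.12, or -0.066 without replicate 2, and the lowest was PSMC4, an ATPase of the regulatory particle, at -0.16 ± 0.081. Of 17 aminoacyl-tRNA synthetases, 12 were negative, with a median of -0.09.

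**Figure D4:**
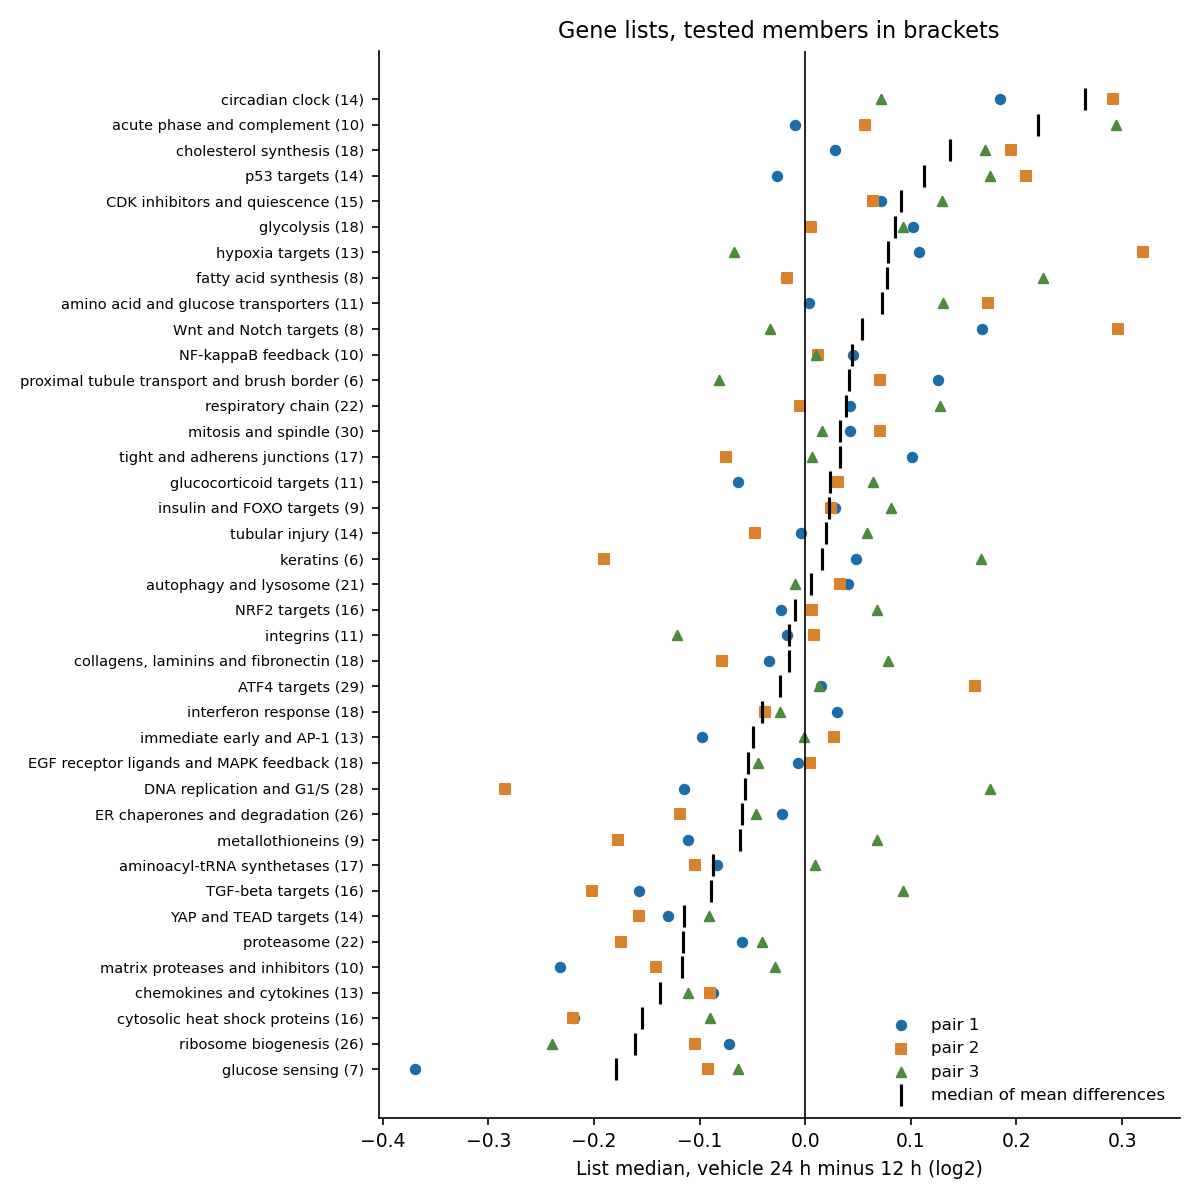
Median difference between vehicle cultures of 24 h and 12 h (log2) of each gene list with at least 5 tested members, in each replicate pair (points) and in the mean of the pairs (tick). The clock list lies highest at 0.26; heat shock proteins (-0.15) and ribosome biogenesis (-0.16) lie below 0 in all 3 pairs, whereas DNA replication is negative in pairs 1 and 2 and positive in pair 3.

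TXNIP gave the second lowest difference of all tested genes. As a preset gene it had 9.58, 8.14 and 7.88 at 24 h, against 10.22, 9.86 and 9.62 at 12 h. The groups did not overlap, and the difference was -0.64 in pair 1 but -1.72 and -1.74 in pairs 2 and 3. The mean was -1.36 ± 0.28, with a 95% interval of -2.00 to -0.73 (limma adjusted p = 0.144). All measurable probe sets of TXNIP had negative differences. KLF10, a Kruppel-like factor, had 8.68, 8.87 and 8.70 at 24 h and 9.14, 9.23 and 8.99 at 12 h, also without overlap, a difference of -0.37 ± 0.097. PDK4, the kinase that shuts off pyruvate dehydrogenase, was higher in 3 of 3 pairs (0.59 ± 0.27, 1 probe set of opposite sign). SLC2A3, a high-affinity glucose transporter, had 8.63, 8.87 and 7.41 at 24 h and 8.31, 8.15 and 6.75 at 12 h, higher by 0.56 ± 0.15. Among 18 glycolytic genes 12 were positive, with a median of 0.09, ENO2, a neuron-type enolase, differing by 0.49 ± 0.12. Of 13 hypoxia targets 9 were positive. NDRG1, a stress-responsive gene, had 8.32, 8.55 and 7.92 at 24 h and 7.62, 7.93 and 7.69 at 12 h, and KDM3A, a histone demethylase, differed by 0.35 ± 0.095, whereas EGLN3, a prolyl hydroxylase of the HIF subunits, differed by -0.59 ± 0.29, with its 24 h value in replicate 3 near background.

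Clock genes gave the highest median among the lists with at least 5 tested members when all replicates were used. Of 14 tested members 11 were positive, with a median of 0.26, where 47.9% of all genes were positive. Without one replicate the median was 0.160 to 0.170, and without replicate 1 or 2 that of acute phase and complement genes was higher, at 0.297 and 0.219. BHLHE41, a repressor in the clock loop, had the smallest p of the genes that were higher at 24 h. It was at 9.49, 9.89 and 9.83 at 24 h, against 8.85, 9.33 and 9.38 at 12 h. All 24 h arrays lay above all 12 h arrays, which held for 318 genes (2.97%), and the difference was 0.55 ± 0.075 (limma adjusted p = 0.0566). DBP, an output factor of the clock and a preset gene, had 5.74, 6.26 and 4.09 at 24 h and 4.64, 5.26 and 3.43 at 12 h, a difference of 0.92 ± 0.29. TEF and HLF, its relatives, differed by 0.34 ± 0.18 and 0.20 ± 0.12, higher in 3 of 3 pairs. CIART, a clock repressor, differed by 0.66 ± 0.42, and NR1D2, the nuclear receptor REV-ERB beta, by 0.39 ± 0.26, but both were higher in replicates 1 and 2 and lower in replicate 3. The preset gene PER2 differed by 0.35 ± 0.35, lower in pair 1. BMAL1, an activator of the loop, was lower in 3 of 3 pairs (-0.22 ± 0.11), and CRY1, a repressor, differed by -0.29 ± 0.16 without one sign. PER1 and NR1D1, both preset, were not among the tested genes.

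The window of BHLHE41 is shown for the E-box CACGTG, the sequence that the BMAL1 and CLOCK pair is known to bind and that reads the same on both strands, in capitals. It lies at chr12:26124988-26125287 on the minus strand.
BHLHE41: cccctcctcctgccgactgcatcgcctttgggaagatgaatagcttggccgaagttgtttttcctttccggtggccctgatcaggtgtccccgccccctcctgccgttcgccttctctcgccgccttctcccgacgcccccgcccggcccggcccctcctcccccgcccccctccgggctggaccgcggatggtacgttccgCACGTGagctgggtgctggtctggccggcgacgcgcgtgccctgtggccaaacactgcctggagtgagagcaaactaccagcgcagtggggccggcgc
The letters occur in 6 of 21 windows of the 14 clock genes (28.57%), against 9.79% of the windows of all tested genes and 7.26% of all windows. That pair is known to drive clock genes, so the share in this list does not bear on the difference between times. Among the shifted genes, 7 of 59 windows of the higher ones (11.86%) and 13 of 135 of the lower ones (9.63%) held the letters. A match is not an observed binding site. The DBP window and both TXNIP windows held none.

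Other genes with the smallest p on the higher side had varied roles. BLNK, an adaptor of B-cell receptor signalling, gave the highest difference of all tested genes, 1.58 ± 0.25 (limma adjusted p = 0.0930). Its arrays held 6.01, 6.84 and 3.15 at 24 h and 3.64, 5.31 and 2.32 at 12 h, so replicate 3 at both times and replicate 1 at 12 h lay near background. NEURL2, a neuralized-type ubiquitin ligase component, had 5.06, 4.84 and 4.68 at 24 h and 4.24, 4.03 and 3.62 at 12 h, a difference of 0.90 ± 0.12. TRPT1, a tRNA phosphotransferase, differed by 0.46 ± 0.065, S100A1, a calcium-binding protein, by 0.54 ± 0.089, EXOC4, a subunit of the exocyst, by 0.44 ± 0.073, and AKAP9, a centrosomal anchor of protein kinase A, by 0.40 ± 0.067. DVL2, a transducer of Wnt signals, differed by 0.37 ± 0.064, AUH, a mitochondrial hydratase, by 0.46 ± 0.079, RPS6KA5, the kinase MSK1, by 0.53 ± 0.091, and ZCCHC14 by 0.40 ± 0.070. EPG5, needed for fusion of autophagosomes with lysosomes, differed by 0.53 ± 0.085, with 1 probe set of opposite sign. SYCE2, a protein of the meiotic synaptonemal complex, differed by 1.03 ± 0.22, and PELI2, a ubiquitin ligase, by 0.97 ± 0.29, from levels near 5 or below on several arrays.

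Cholesterol synthesis genes had small differences, of which 0 passed the test (limma). Of 18 tested members 17 were positive, with a median of 0.14, where 47.9% of all genes were positive. At an unadjusted p under 0.05, 3 were higher (5.77% of all genes), and 8 were higher in all 3 pairs (18% of all genes). INSIG1, which holds back SREBP activation and is itself an SREBP target, had 12.00, 12.49 and 12.33 at 24 h and 11.66, 11.89 and 12.27 at 12 h, a difference of 0.33 ± 0.11. IDI1, which isomerizes isopentenyl diphosphate, had 12.30, 12.51 and 12.20 at 24 h and 12.05, 12.07 and 11.89 at 12 h, without overlap, and differed by 0.33 ± 0.093. MVD, mevalonate diphosphate decarboxylase, differed by 0.37 ± 0.14, and the preset gene HMGCS1, which makes HMG-CoA, by 0.20 ± 0.098. EBP, a sterol isomerase, was the negative one, at -0.076. ACSS2, which makes acetyl-CoA from acetate, gave the highest difference of the 8 fatty acid synthesis genes, 0.48 ± 0.14.

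In a list of inhibitors of cyclin-dependent kinases and quiescence genes, 9 of 15 were positive, with a median of 0.09. The list also holds cyclin D1 (CCND1), which carries cells into the cycle and was its lowest member, at -0.60. CDKN1A, the p21 inhibitor of cyclin-dependent kinases, was at 8.84, 8.79 and 8.92 at 24 h and 8.55, 8.51 and 8.42 at 12 h, without overlap, a difference of 0.36 ± 0.13. BAX, a proapoptotic p53 target, differed by 0.33 ± 0.12, MDM2, the ligase of p53, by 0.27 ± 0.11, and ZMAT3, a p53-induced RNA-binding protein, by 0.32 ± 0.10. GDF15, a secreted stress cytokine, had 10.27, 10.65 and 11.21 at 24 h and 9.45, 9.62 and 10.54 at 12 h, a difference of 0.84 ± 0.20 (limma adjusted p = 0.176). Of the 14 tested p53 targets 8 were positive, with a median of 0.11, and TP53I3, an oxidoreductase, had a mean difference of -0.30. BTG1, an antiproliferative protein, differed by 0.29 ± 0.11, CCNG2, cyclin G2, by 0.24 ± 0.10 and CCND3, cyclin D3, by -0.20 ± 0.077. Of 30 mitosis genes 19 were positive, with a median of 0.03. MKI67, the proliferation antigen Ki-67, had 11.14, 11.07 and 11.72 at 24 h and 10.80, 10.80 and 11.36 at 12 h, higher in 3 of 3 pairs by 0.32 ± 0.087 (1 probe set of opposite sign), and CENPF, a kinetochore protein, differed by 0.21 ± 0.067. CCNB1, cyclin B1, differed by -0.026 ± 0.10. Of 28 DNA replication genes 19 were negative, with a median of -0.06, and 0 had an unadjusted p under 0.05. MCM10, an initiation factor, had 7.43, 7.26 and 8.57 at 24 h and 7.93, 7.98 and 8.59 at 12 h, a difference of -0.42 ± 0.31, and MCM5, a subunit of the replicative helicase, differed by 0.12 ± 0.21, with a lower value in pair 2.

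Stress signalling showed no common direction. Of 29 ATF4 targets 13 were positive, with a median of -0.02. TRIB3, a pseudokinase induced by ATF4, had 11.17, 11.31 and 10.42 at 24 h and 10.48, 10.66 and 10.11 at 12 h, a difference of 0.55 ± 0.18, and ATF4 differed by 0.34 ± 0.14 without overlap of the groups. The preset gene DDIT3, the factor CHOP, differed by 0.44 ± 0.41. ASNS, asparagine synthetase and also an ATF4 target, was lower in 3 of 3 pairs, with a difference of -0.35 ± 0.33. Of 26 ER chaperone and degradation genes 15 were negative, with a median of -0.06. HSPA5, the main ER chaperone, had 12.40, 12.38 and 12.37 at 24 h and 12.79, 12.76 and 12.49 at 12 h, without overlap, a difference of -0.30 ± 0.17. DNAJC3, an ER cochaperone that restrains the kinase PERK, differed by -0.52 ± 0.13, also without overlap.

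Injury markers and secreted inflammatory genes were mixed. LCN2, a secreted injury marker, had 2.76, 3.48 and 11.06 at 24 h and 3.03, 3.58 and 10.34 at 12 h, so replicates 1 and 2 were near background at both times and replicate 3 was high. HAVCR1, the injury molecule KIM-1, was at 11.08, 10.52 and 10.72 at 24 h and 11.28, 10.95 and 10.89 at 12 h, lower in 3 of 3 pairs, with a difference of -0.27 ± 0.097. CLU, clusterin, was higher in 3 of 3 pairs, by 0.37 ± 0.11, with 1 probe set of opposite sign. SPP1, osteopontin, among the brightest genes, differed by -0.017 ± 0.061, and FKBP5, a glucocorticoid-induced immunophilin, by 0.023 ± 0.11. CXCL8, a neutrophil chemokine, had 11.99, 12.08 and 14.89 at 24 h and 12.53, 12.43 and 14.90 at 12 h, lower in 3 of 3 pairs, with a difference of -0.30 ± 0.12. IL6 had 3.69, 4.09 and 11.75 at 24 h and 4.08, 4.65 and 12.17 at 12 h, a difference of -0.45 ± 0.090 (limma adjusted p = 0.140), while replicates 1 and 2 were near background. Of 13 chemokines and cytokines 8 were negative, with a median of -0.14, and IL1B differed by 0.37 ± 0.16. Among 10 acute phase and complement genes 7 were positive, with a median of 0.22, which was 0.056 without replicate 3. The list's median was -0.0094, 0.057 and 0.295 in pairs 1 to 3. CFB, complement factor B, differed by 0.39 ± 0.13, with 1 probe set of opposite sign.

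CsA cultures were followed over the same 12 h, on arrays of their own. With CsA, 345 genes rose (3.22%) and 282 fell (2.63%) at a limma adjusted p under 0.05 between 12 and 24 h. The test of the difference between the treatments in this change called 0 genes in either direction (limma, 0.0%), with 923 at an unadjusted p under 0.05 (8.61%). Of the 60 shifted higher genes, 57 had a positive difference with CsA too, with a median of 0.552 with CsA and 0.582 with vehicle. Of the 122 shifted lower genes, 106 were negative with CsA, with a median of -0.381 with CsA and -0.618 with vehicle. Over all tested genes the median with CsA was -0.0097. Fewer passed the test with CsA in the same direction, 18 of the 60 and 24 of the 122. The difference between treatments had an unadjusted p under 0.05 (limma) in 6 of the 60 and 28 of the 122 (8.61% of all genes). The vehicle medians and that difference use the arrays that chose the genes, so they are a description. TXNIP fell by 3.16 with CsA (limma adjusted p = 0.00302), against a vehicle difference of -1.36, and the test between them gave -1.79 ± 0.40 (limma adjusted p = 0.476). BHLHE41 rose by 1.02 with CsA, against 0.55 with vehicle, and SHISA9 fell by 1.22 with CsA, against -0.80 with vehicle. MMP1 fell by 0.72 with CsA (limma adjusted p = 0.0173). EMP1 differed by -0.16 with CsA and by -0.65 with vehicle, and TGFB2 by 0.034 and -0.76, but neither difference between treatments passed the test. The heat shock list had a median of -0.43 with CsA and -0.15 with vehicle, and the clock list 0.55 with CsA and 0.26 with vehicle. ATF4 targets had a median of 0.72 with CsA and -0.02 with vehicle, and 11 of 29 had an unadjusted p under 0.05 for the difference between treatments.

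**Figure D5:**
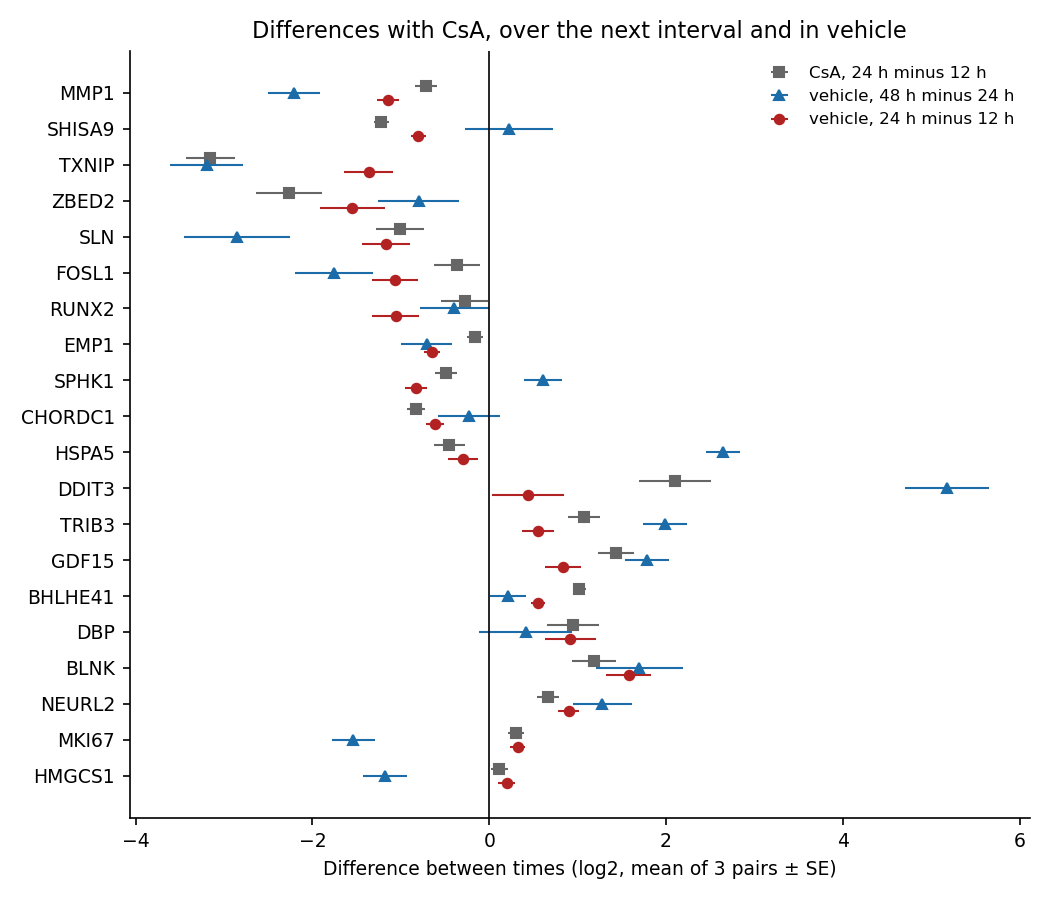
Difference between times (log2, mean of 3 pairs ± SE) of 20 named genes in CsA cultures (24 h minus 12 h, grey squares), in vehicle cultures over the next interval (48 h minus 24 h, blue triangles) and in vehicle cultures of 24 h minus 12 h (red circles). DDIT3 and HSPA5 lie at 5.18 and 2.64 over the next interval, against 0.44 and -0.30 in the first; the 2 vehicle differences share the 24 h arrays.

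The next interval, 24 to 48 h, was longer and moved far more genes. In vehicle cultures 1779 genes rose (16.6%) and 1710 fell (16%) at a limma adjusted p under 0.05 between 24 and 48 h. At an unadjusted p under 0.05 there were 4563 (42.6%). The later interval shares the 24 h arrays with the first interval, so values of both are given side by side. The test of the difference between the intervals called 348 genes with a higher (3.25%) and 212 with a lower (1.98%) later change. Among the mitosis genes 29 of 30 fell over the later interval, with a list median of -1.23 against 0.03 in the first. MKI67 fell by 1.54 later (limma adjusted p = 0.000548), against 0.32 in the first interval, and CCNB1 fell by 1.26, against -0.026. DNA replication genes had a later median of -1.13 against -0.06, and 24 of 28 fell. ER chaperones had a later median of 1.49 against -0.06, with 20 of 26 rising, HSPA5 by 2.64 against -0.30. ATF4 targets had a later median of 1.71 against -0.02, with 26 of 29 rising. Cholesterol synthesis had a later median of -0.37 against 0.14, 9 of 18 falling and 2 rising, HMGCS1 by -1.18 against 0.20. TXNIP fell by 3.20 later (limma adjusted p = 0.000160) and MMP1 by 2.21 (limma adjusted p = 0.000191), against -1.36 and -1.15 in the first interval. SPHK1 rose by 0.61 later (limma adjusted p = 0.0426), against -0.83. The heat shock list had a later median of -0.28 with 3 genes falling, and the clock list 0.43 with 4 rising. Of the 122 shifted lower genes, 16 fell again over the later interval and 25 rose, where 16% of all genes fell and 16.6% rose. Of the 60 shifted higher genes 16 rose again and 3 fell. The 24 h arrays that chose these genes are also the baseline of the later change. Spread in those arrays pushes that change the opposite way, so the counts are a description.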

How the data were processed

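HK-2 RNA was hybridized to Affymetrix arrays as biotin-labelled cRNA, per the labels' protocols. The authors' deposited table held 54675 probe sets on 18 arrays as log2 values, made with GCRMA per the submitters' processing notes; the log base was read from the range of the values, and no version is stated. GCRMA compresses differences near background. Samples were grouped by title. Probe sets with exactly 1 symbol (41091, against 1801 with several and 11721 unnamed) whose highest of 6 group means was at least 4 were kept, the brightest per gene.

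The main comparison used limma 3.58.1 in R 4.3.3 on 12 arrays with group and replicate number as terms (6 residual degrees of freedom), with Benjamini-Hochberg adjustment over 10717 genes and a threshold of 0.05. The fit was tested on simulated data of 10717 genes in all. Their errors were normal, independent and drawn from the fit's own estimate of the spread. There it recovered 66% of differences of 0.5 and 96% of differences of 1, and it called 10 unchanged genes. Such errors meet the fit's own assumptions, so these rates do not show what it recovers on the arrays compared. Whether the rates hold for those arrays was not tested. On the arrays, 11 genes differed by 1 or more between 24 and 12 h, and of these MMP1 alone passed. Later intervals used all 18 arrays. Arrays were paired by the replicate number in their titles, which the labels do not tie to a shared passage or day; as a check, deviations of vehicle arrays of one number correlated between 24 and 12 h at 0.790, 0.813 and 0.915, and 6 of 6 arrays matched their own number best. P-values measure only the spread between these cultures. Tables and figures used Python 3.11.15, pandas 2.3.3 and matplotlib 3.10.9. The number of arrays limits the precision.

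Named genes were those called, then the smallest p up to 12 in each direction with one sign in the pairs, called list members, 22 preset genes, and the 4 largest called differences between intervals each way. The arrays compared, the 46 lists and the preset genes were chosen with earlier results of these data known. Alternatives changed the arrays, block, replicates, level filter, scaling, floor, probe set rule and variance model.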

Additional observations from a re-analysis of the deposited data

Results flagged for a closer look

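In 8 genes the change over the later vehicle interval differed from that over the first by a limma test of the difference itself, as the largest called differences each way; the intervals differ in length and share the 24 h arrays. SLC7A11, the cystine transporter, had the largest, 5.88 ± 0.71 on the log2 scale (later minus first, limma adjusted p = 0.00186), with 5.42 later and -0.45 in the first interval. The stress-induced transcription factors ATF3 and DDIT3 differed by 5.26 ± 1.11 and 4.74 ± 0.83 (limma adjusted p = 0.0210 and 0.00944), and INHBE, an inhibin beta chain, by 4.81 ± 0.79 (limma adjusted p = 0.00759). ATF3 replicates 1 and 2 and most SLC7A11 arrays were close to background in the first interval, so the sizes are compressed at the low end. The negative ones were GAL, the neuropeptide galanin (-2.55 ± 0.50), NCAPH, a condensin subunit (-2.32 ± 0.45), SCN3A, a sodium channel (-2.31 ± 0.62), and BLM, a RecQ helicase (-2.20 ± 0.55), with limma adjusted p of 0.0159, 0.0152, 0.0488 and 0.0389.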

How the results depend on the processing

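The count of genes called between 24 and 12 h, 2, depended on the fit. It was 0 with the replicate block on 6, 9 or 18 arrays, 0 with no replicate block on 12, 6 or 18 arrays, and 0 without replicate 1, 2 or 3 (lowest and highest both 0). It was also 0 after quantile normalization and with values below 4 raised to 4, 12 with a level filter of 6, 7 with no filter and 7 with a variance trend and robust fitting. The count at an unadjusted p under 0.05 was 1365, 282 and 427 with the block on 6, 9 and 18 arrays, against 1400 in the main fit. With no block on 12, 6 and 18 arrays it was 241, 185 and 131. Without replicate 1, 2 or 3 it was 630, 958 and 1686. MMP1 stayed negative throughout, at -1.01 to -1.25 without one replicate. With the replicate block left out, adjusted p was 0.9999 for MMP1 and SHISA9; leaving it out called 0 genes in the CsA comparison and 29, not 560, between the intervals, where leaving out a replicate gave 23 to 86. Shifted genes numbered 107 to 119 higher and 147 to 259 lower without one replicate, where 2 pairs must share a sign rather than 3; the 259 came without replicate 3. Of 91 named genes, 6 changed sign when a replicate was left out: LCN2 (-0.18 to 0.32), SPP1 (-0.046 to 0.0042), CCNB1 (-0.091 to 0.071), MCM5 (-0.085 to 0.30) and EGR1 (-0.16 to 0.035), all without replicate 3, and NUSAP1 (-0.011 to 0.086), without replicate 2. The medians of the heat shock, ribosome biogenesis, proteasome, YAP, clock and cholesterol lists kept their sign in every alternative run. Of 40 lists, 17 changed sign without one replicate, such as DNA replication (-0.19 to 0.033), ER chaperones (-0.060 to 0.0049), EGF receptor ligands (-0.084 to 0.013), ATF4 targets (-0.047 to 0.026) and glucose sensing genes (-0.25 to 0.040), and 5 did so in another alternative; 20 more kept their sign but moved by over 1.5 times without one replicate, the clock, acute phase, ribosome biogenesis, proteasome, YAP and cholesterol lists among them. Median differences over all genes were -0.0069 as deposited, 0.0056 after quantile normalization and 0.0063 after centring. The cause of these dependences was not tested.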

Other observations

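Several lists that the comparisons above leave out held small differences between 24 and 12 h, and 0 of their members passed the test (limma). Over all tested genes 47.9% were positive and 52.1% negative. Respiratory chain genes had 17 of 22 positive, with a median of 0.04; SDHA, the flavoprotein of complex II, differed by 0.19 ± 0.073 and CYCS, cytochrome c, by -0.18 ± 0.070. Of 16 NRF2 targets 8 were positive, GCLM, which limits glutathione synthesis, differing by -0.27 ± 0.085 and the aldo-keto reductases AKR1C1 and AKR1C2 by 0.31 ± 0.25 and 0.32 ± 0.17. Of 9 metallothioneins and zinc transporters 8 were negative, with a median of -0.06. Of 21 autophagy and lysosome genes 12 were positive, ATP6V1H, a subunit of the proton pump, differing by 0.23 ± 0.067. Interferon response genes had 11 of 18 negative (median -0.04), NF-kappaB feedback genes 7 of 10 positive (0.04), and integrins 7 of 11 negative (-0.02), with ITGB4 at 0.43 ± 0.18 and without one sign in the pairs. Glucocorticoid targets had 7 of 11 positive, TSC22D3, an anti-inflammatory leucine zipper protein, differing by 0.32 ± 0.14. Junction genes had 11 of 17 positive (0.03) and keratins with VIM 3 of 6 (0.02). Insulin and FOXO targets had 5 of 9 positive (0.02), glucose sensing genes 3 of 7 (-0.18), amino acid and glucose transporters 6 of 11 (0.07), fatty acid synthesis 5 of 8 (0.08), and Wnt and Notch targets 5 of 8 (0.05). Replication-dependent histones had 1 of 4 positive (-0.17), immediate early genes 6 of 13 (-0.05), proximal tubule transport genes 3 of 6 (0.04) and tubular injury genes 7 of 14 (0.02). CA2, carbonic anhydrase 2, was lower in 3 of 3 pairs, with a difference of -0.32 ± 0.085, and SLC4A4, the sodium bicarbonate cotransporter, differed by 0.37 ± 0.12, with replicate 3 at 9.34 at both times and 1 probe set of opposite sign. These genes were chosen after their values were seen.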
